A study of Mus musculus with 18 samples.

Results

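H3K36me3 and H3K36me2, the trimethylated and dimethylated forms of lysine 36 of histone H3, were compared in untreated mouse embryonic stem cells by chromatin immunoprecipitation and sequencing (ChIP-seq). The comparison took every untreated library of either mark, which gave 4 of the 18 libraries of the study, 2 replicates of H3K36me3 and 2 of H3K36me2. The cells were of the line E14, a pluripotent line, and were grown on gelatin in 2i/LIF medium, in which inhibitors of GSK3 and MEK and the cytokine LIF keep such cells undifferentiated. The medium of all groups carried light, medium or heavy isotope forms of arginine and lysine. Untreated cells received neither the EZH2 inhibitor EPZ6438 nor its solvent DMSO, and no Drosophila chromatin was added to these 4 libraries. H3K36me2 libraries from cells kept for 7 days in DMSO, with Drosophila chromatin added, served only as an alternative. The antibody was a polyclonal one for H3K36me3 and a monoclonal one for H3K36me2, so the mark and its antibody cannot be told apart. Nothing in the labels says that replicates came from separate cultures, and p-values measure the spread between these samples, which may be technical.

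NSD1, NSD2, NSD3 and ASH1L are known to place the dimethyl mark on H3K36. SETD2, which travels with elongating RNA polymerase II, is known to place the trimethyl mark along transcribed genes. Dimethylation is known to reach widely into intergenic chromatin and to hinder the enzyme PRC2, which methylates H3K27. Trimethylation is known to recruit factors that keep transcription from starting inside genes.

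Each library was deposited as read coverage in windows of 1 kb, and the read numbers could be recovered from the steps between the values. The level used below is the mean coverage of a feature on the linear scale divided by the library's own mean over the 19 autosomes, so 1 is the autosomal mean, and neither mark's absolute abundance can be read from it. A level of 1 stood for 10.8 and 9.18 reads per window in the H3K36me3 libraries and for at least 16.2 in the H3K36me2 libraries. Mapped reads, as recovered, numbered 20.3 M and 17.3 M for H3K36me3 and 50.9 M and 30.7 M for H3K36me2. Replicate counts over gene bodies were further apart than sampling alone gives (chi-square divided by its degrees of freedom 8.78 for H3K36me3 and 16.2 for H3K36me2). Their rank order over genes was nearly the same, with a Spearman rho of 0.991 and 0.986 across genes. The features were 13323 autosomal protein-coding genes of at least 10 kb, 10549 of them with a known strand, and 103122 intergenic bins of 10 kb that touched no annotated gene. Of these genes, 6578 overlapped another gene, whose reads cannot be told apart from their own. Values of the 4 libraries are given in the order H3K36me3 replicate 1 and 2, then H3K36me2 replicate 1 and 2.

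H3K36me3 was concentrated in gene bodies to a much greater degree than H3K36me2. The mean level over gene bodies was 2.62 and 2.73 for H3K36me3 and 1.52 and 1.40 for H3K36me2, a log2 ratio of H3K36me3 over H3K36me2 of 0.87. Over intergenic bins it was 0.413 and 0.390 for H3K36me3 and 0.659 and 0.706 for H3K36me2, a log2 ratio of -0.76. Gene bodies therefore exceeded intergenic bins 6.35-fold and 6.99-fold in H3K36me3 and 2.30-fold and 1.99-fold in H3K36me2. The log2 difference between the marks was 1.64, with an SD of 0.10 among the H3K36me3 libraries and 0.15 among the H3K36me2 libraries, and the libraries of the marks did not overlap. The exact two-sided permutation test gave p = 0.333, and with 2 libraries on each side no smaller value can be reached.

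The shares of reads gave the same order. Here gene bodies were all windows in protein-coding genes of any length, so long genes weigh more than in the gene means above. Gene bodies made up 39.96% of autosomal windows and held 68.1% and 69.4% of H3K36me3 reads but 50.7% and 49.1% of H3K36me2 reads. Intergenic windows, 50.5% of the genome counted, held 24.8% and 23.6% of H3K36me3 reads and 38.6% and 40.3% of H3K36me2 reads. H3K36me3 was also the more focal mark. The 10% of 10 kb bins with the most reads held 45.4% and 47.7% of H3K36me3 reads, against 31.2% and 27.8% of H3K36me2 reads.

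Along the gene the 2 marks parted at the start. In the first 10% of the 10549 gene bodies with a strand, the levels were 1.60 and 1.56 for H3K36me3 and 1.60 and 1.44 for H3K36me2, so the marks overlapped there, with a log2 ratio of 0.06. In steps of 10% the ratio was 0.49 in the second, 0.93 in the fifth and 1.26 in the last. In the last 10% H3K36me3 stood at 3.37 and 3.60, and H3K36me2 at 1.52 and 1.40. H3K36me3 was thus 2.10-fold and 2.30-fold higher in the last 10% than in the first, whereas H3K36me2 stayed at 0.946 and 0.969 of its first 10%. The marks differed in this quotient by 1.20 on the log2 scale (SD 0.09 and 0.02, n = 2 and 2), with p = 0.333 in the exact permutation test. The last 10% exceeded the first in 73.2% and 72.9% of genes for H3K36me3 and in 43.3% and 44.6% for H3K36me2. Other marks of the same cells, averaged over 2 libraries each, also had a gradient over these genes: H3K27me1, which is known to accompany transcribed genes, went from 1.11 in the first 10% to 1.68 in the last, and H3K27me3, the mark of PRC2-repressed genes, from 1.59 to 1.24.

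**Figure D1:**
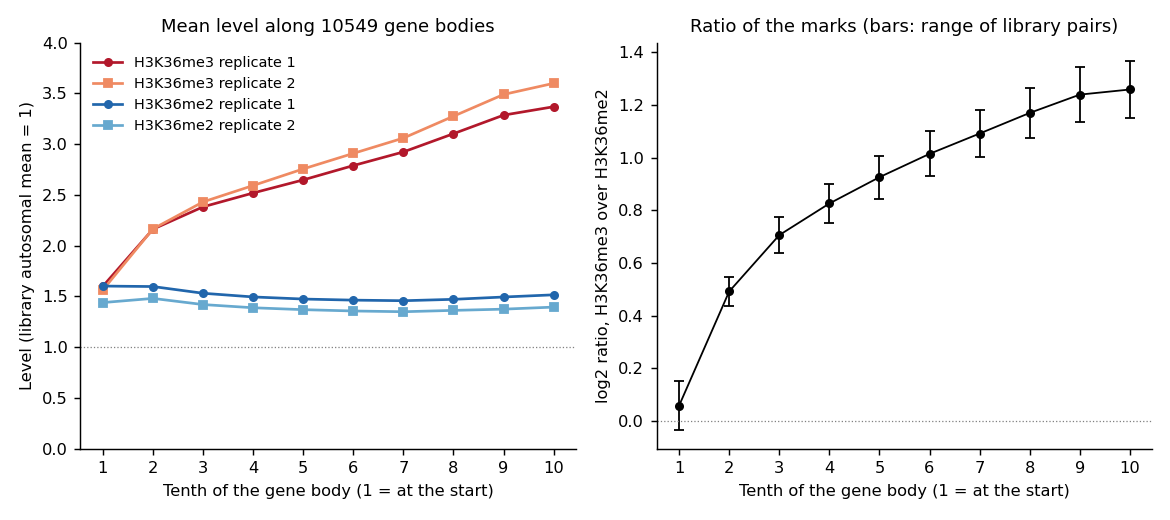
Mean level of each of the 4 libraries (left; 1 is the library's autosomal mean) and the log2 ratio of H3K36me3 over H3K36me2 (right; points are means, bars the range over the library pairs) in steps of 10% of the gene body in 10549 genes. The H3K36me3 libraries lie at 1.60 and 1.56 in the first 10% and at 3.37 and 3.60 in the last, and the H3K36me2 libraries stay between 1.35 and 1.60 throughout.

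The position at which the marks parted was close to the start. In the 3678 genes of 50 kb or more with a strand, the first kilobase had levels of 1.14 and 1.13 for H3K36me3 and 1.32 and 1.14 for H3K36me2, a log2 ratio of -0.11. Between 1 and 5 kb from the start the ratio was 0.09, between 20 and 50 kb it was 0.41, and in the 1 to 5 kb before the end it was 0.93. Relative to the autosomal mean, H3K36me3 stayed above H3K36me2 for about 2 kb beyond the end. Each place where the ratio crosses 0 depends on that scale. Intergenic windows within 1 kb downstream of a gene end had levels of 2.16, 2.21, 1.41 and 1.32, a log2 ratio of 0.68. At 1 to 2 kb the ratio was 0.31, at 2 to 5 kb it was -0.26, and at 10 to 20 kb it was -0.78. Upstream of a gene start no such shoulder was seen: within 1 kb of the start the levels were 0.887, 0.863, 1.58 and 1.44, a log2 ratio of -0.78. H3K36me3 was thus more than 2-fold higher just downstream of genes than just upstream in both libraries, whereas H3K36me2 was lower downstream in both.

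**Figure D2:**
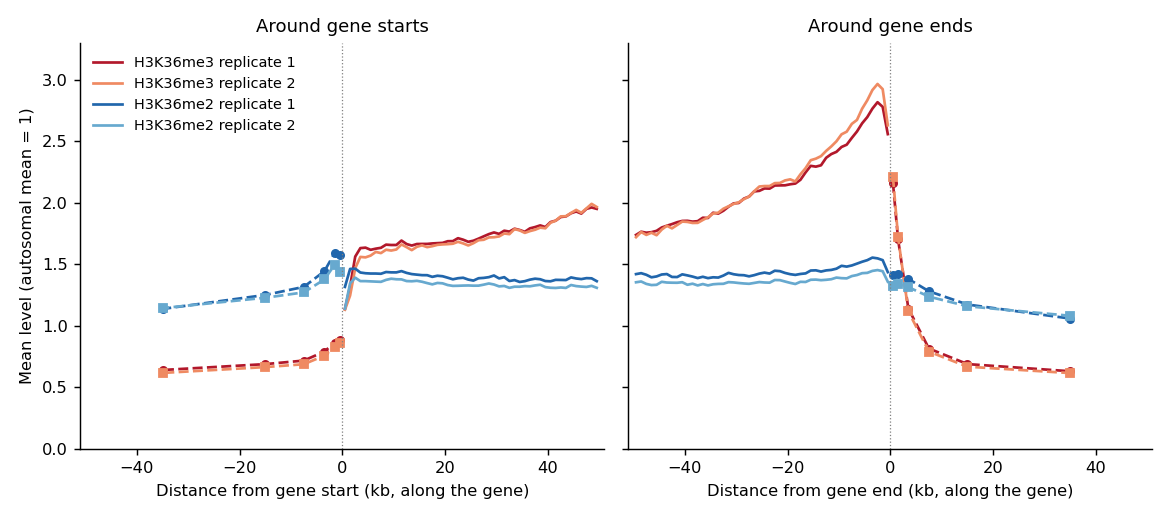
Mean level (1 is the autosomal mean) of each library by distance from gene starts (left) and ends (right). Solid lines are 1 kb steps inside 3678 genes of 50 kb or more, and dashed lines with points are intergenic windows outside any annotated gene, a different set of genes, so the step at 0 also holds the change of gene set. H3K36me3 is at 2.16 and 2.21 within 1 kb after gene ends, and at 0.887 and 0.863 within 1 kb before gene starts.

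At gene starts the balance of the marks differed with the CpG content of the promoter, the stretch from 250 bases before to 50 bases after the start. CpG is the letters CG, which read the same on both strands, and 94.6% of the 32851 promoters of 300 bases in the table hold at least 1. The 10549 genes were divided into 3 equal classes. With 0 to 11 CpG, the window at the start had levels of 1.06 and 1.09 for H3K36me3 and 1.71 and 1.59 for H3K36me2, a log2 ratio of -0.62. With 11 to 24 CpG the ratio was -0.21, and with 24 to 65 CpG it was 0.22, from levels of 1.23 and 1.23 against 1.20 and 0.936. H3K36me2 at the start was thus lower in the CpG-richer classes in both libraries, while H3K36me3 lay between 1.06 and 1.23 in all 3 classes. From 5 to 10 kb into the gene the ratios were -0.08, 1.16 and 1.10. There H3K36me3 was at 1.27 and 1.29 in the CpG-poor class and at 3.29 and 3.44 in the middle class, while H3K36me2 lay between 1.33 and 1.59 in every class.

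The promoters of 4 genes show the range of CpG content and of marks inside the gene. They are from RefSeq for GRCm38.p6, with CG in capitals. The genes are Setd2 (chr9:110532347-110532646, plus strand) and Zfp42 (chr8:43306960-43307259, minus strand), which encode an H3K36 methyltransferase and the stem cell marker REX1 and have trimethylated bodies, the pluripotency factor gene Esrrb (chr12:86360867-86361166, plus strand), which starts in dimethylated chromatin, and the ubiquitin ligase gene Trim31 (chr17:36897880-36898179, plus strand), with a dimethylated body.
Setd2: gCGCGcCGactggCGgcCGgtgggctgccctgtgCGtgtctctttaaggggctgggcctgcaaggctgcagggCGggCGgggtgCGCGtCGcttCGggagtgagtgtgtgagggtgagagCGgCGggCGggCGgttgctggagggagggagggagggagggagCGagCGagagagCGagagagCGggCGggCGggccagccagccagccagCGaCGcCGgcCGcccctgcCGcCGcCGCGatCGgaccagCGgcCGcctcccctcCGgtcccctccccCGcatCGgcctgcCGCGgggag
Zfp42: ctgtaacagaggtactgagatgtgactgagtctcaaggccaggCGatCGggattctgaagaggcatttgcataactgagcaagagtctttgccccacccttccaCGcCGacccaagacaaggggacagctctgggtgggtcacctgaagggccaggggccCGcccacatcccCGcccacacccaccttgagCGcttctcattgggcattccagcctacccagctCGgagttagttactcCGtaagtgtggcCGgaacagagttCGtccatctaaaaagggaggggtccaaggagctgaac
Esrrb: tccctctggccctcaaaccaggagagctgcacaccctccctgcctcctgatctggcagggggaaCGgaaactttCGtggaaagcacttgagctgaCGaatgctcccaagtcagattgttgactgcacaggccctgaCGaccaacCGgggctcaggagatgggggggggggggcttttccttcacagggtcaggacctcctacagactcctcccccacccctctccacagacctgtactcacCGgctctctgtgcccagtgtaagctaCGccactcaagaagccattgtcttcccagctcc
Trim31: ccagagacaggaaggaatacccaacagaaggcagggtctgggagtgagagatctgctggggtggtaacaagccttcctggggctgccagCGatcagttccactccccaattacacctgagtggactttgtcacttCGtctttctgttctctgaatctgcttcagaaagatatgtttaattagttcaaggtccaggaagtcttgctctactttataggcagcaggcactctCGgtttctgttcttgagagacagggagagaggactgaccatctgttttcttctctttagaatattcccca

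Setd2 has 38 CG in these 300 bases, as many or more than which 4.95% of promoters hold, Zfp42 has 11 (41.4%), Esrrb 7 (52.1%) and Trim31 3 (76.7%). Each value at a start rests on a single window. The window at the start of Setd2 had levels of 1.95 and 1.96 in H3K36me3 and 1.70 and 0.678 in H3K36me2, with the H3K36me2 libraries far apart. Zfp42 was low in all libraries at its start, at 0.279, 0.218, 0.185 and 0.308, and 5 to 10 kb inside it had 7.19 and 7.08 against 0.252 and 0.0986. Esrrb had 1.67 and 1.85 against 3.48 and 2.28 at its start, and 1.73 and 1.57 against 2.94 and 2.91 inside. Trim31 had 1.12 and 1.09 against 3.52 and 3.58 at its start, and 0.818 and 0.806 against 2.56 and 2.08 inside. At the starts of Esrrb and Trim31 both H3K36me2 libraries lay above both H3K36me3 libraries. The motif is a count of letters and is no evidence of a bound factor.

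The balance of the marks differed with gene length. The log2 ratio over the whole gene body was 1.09 in 3747 genes of 10 to 20 kb, 1.01 in 4851 genes of 20 to 50 kb, 0.68 in 2412 genes of 50 to 100 kb, 0.25 in 1368 genes of 100 to 200 kb and -0.24 in 945 longer genes. In the longest class the levels were 0.920 and 0.919 for H3K36me3 and 1.07 and 1.10 for H3K36me2. Relative to the autosomal mean, H3K36me2 was thus the higher mark in both libraries. Which mark is higher depends on that scale, whereas the order of the length classes does not. The gain of H3K36me3 over H3K36me2 from the first 10% to the last was smaller in longer genes as well, at 1.58, 1.23, 0.93, 0.72 and 0.35 on the log2 scale across the same classes.

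Across genes the marks were not simple opposites. Genes were divided into 10 equal classes by H3K36me3 replicate 1, and the other 3 libraries were read in each class. In the lowest class all were low, at 0.128 for H3K36me3 replicate 2 and 0.199 and 0.259 for H3K36me2. H3K36me2 was highest in the fifth class, at 2.18 and 1.98, where H3K36me3 replicate 2 was at 1.68. In the top class H3K36me3 replicate 2 reached 8.22 while H3K36me2 was back at 1.43 and 1.22. H3K36me2 was therefore highest at intermediate H3K36me3 in both libraries. H3K27me3 had its highest mean in the fourth class, at 2.49, and was at 0.317 in the top class, and H3K27me1 went from 0.541 to 2.84 across the classes.

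Inside genes of the top class, H3K36me2 was also distributed differently. In 1116 such genes with a strand, H3K36me2 went from 1.80 and 1.47 in the first 10% to 1.28 and 1.09 in the sixth and 1.30 and 1.11 in the last. In the 1043 genes of the fourth class the same libraries stood at 1.92 and 1.79 in the first 10% and 2.11 and 1.97 in the last. The log2 change from the first to the last 10% was -0.47 and -0.40 in the top class and 0.14 and 0.14 in the fourth. As a description across features, the Spearman rho between an H3K36me3 and an H3K36me2 library was 0.323 on average over 13323 gene bodies (0.245 to 0.401 over the 4 library pairs), and 0.925 over 103122 intergenic bins (0.920 to 0.930). The points share their libraries and mappability, and neighbouring bins are not independent.

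**Figure D3:**
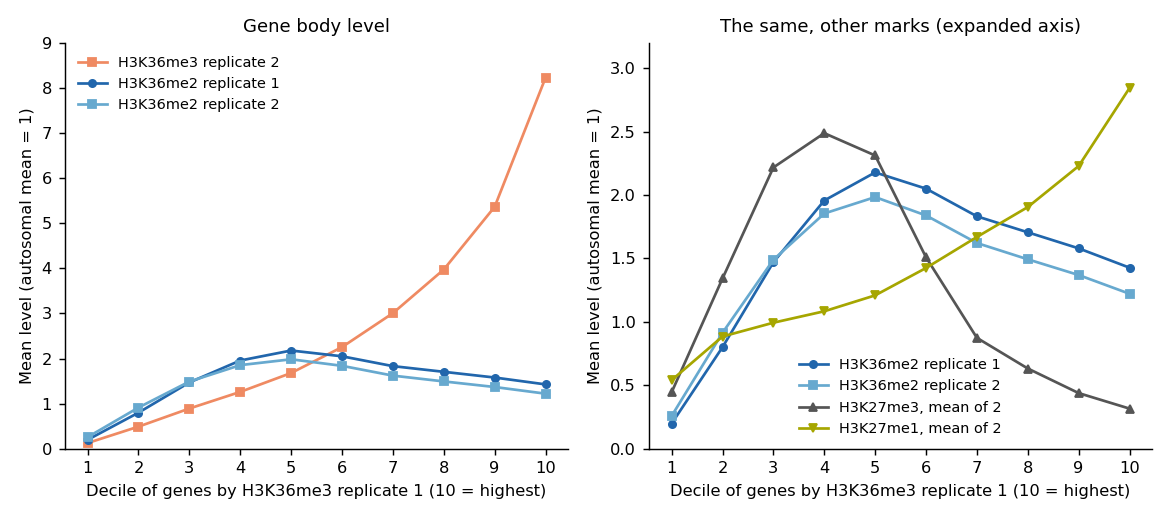
Mean gene body level (1 is the autosomal mean) in 10 equal classes of 13323 genes ranked by H3K36me3 replicate 1, which is not drawn. On the left, H3K36me3 replicate 2 goes from 0.128 to 8.22 while both H3K36me2 libraries have their highest mean in the fifth class, at 2.18 and 1.98; the right panel shows H3K36me2 on an expanded axis beside the means of 2 libraries each of H3K27me3 and H3K27me1.

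Gene by gene, limma compared log2(level + 0.05) of the marks. Of 13128 genes tested, 6282 were higher in H3K36me3 (47.9%) and 4975 were higher in H3K36me2 (37.9%) at a Benjamini-Hochberg adjusted p under 0.05. limma estimated one common spread for all genes, with an SE of 0.15 for every difference, and any gene that differed by about 0.31 or more was called. The calls are thus in effect a threshold on size, and no p-value of a single gene body is printed. Of the called genes, 4592 were at least 2-fold higher in H3K36me3 and 842 at least 2-fold higher in H3K36me2. The split depended on what the marks were scaled to. When each library was scaled by its median over intergenic bins instead of its autosomal mean, the median gene moved from 0.20 to 0.71, and 6816 genes were called for H3K36me3 but only 379 for H3K36me2. Centring each library on its median gene moved the median to -0.33 and gave 5024 and 6624. Most genes called for H3K36me2 against the genome mean were thus not called against intergenic chromatin. Intergenic medians differ between replicates (0.293 and 0.395 in H3K36me2), so that scaling also changes the replicate spread and the size needed for a call.

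The 10 genes with the largest difference towards H3K36me3 combined a high trimethyl level with a dimethyl level under the autosomal mean. Scd2, a stearoyl-CoA desaturase of lipid synthesis, had levels of 11.7 and 12.4 in H3K36me3 and 0.382 and 0.408 in H3K36me2, a log2 difference of 4.77 ± 0.15 (SE). Fasn, the fatty acid synthase (chr11:120805958-120825166 in GRCm38), had levels of 14.3 and 16.4 against 0.706 and 0.685, a difference of 4.37. Zfp42, which encodes the pluripotency marker REX1 (chr8:43295067-43307009), had levels of 5.98 and 5.39 against 0.219 and 0.123, a difference of 4.73. Genes were named only where the libraries of the marks did not overlap, so that they do not here follows from the choice. The other members were Eef1g, a translation elongation factor subunit (4.52), Top2a, DNA topoisomerase II alpha (4.49), Tbrg4 (4.40), the splicing factor gene Sf1 (4.40), the chaperonin subunit gene Cct2 (4.40), Fn1, which encodes fibronectin (4.37), and Mcm5, a subunit of the replicative helicase (4.37). Scd2, Top2a, Tbrg4 and Sf1 overlap another annotated gene.

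The 10 largest differences towards H3K36me2 were smaller, between -1.72 and -1.55. 1700012P22Rik had levels of 0.443 and 0.384 in H3K36me3 and 1.55 and 1.40 in H3K36me2. Trim31, a ubiquitin ligase gene (chr17:36898130-36910217), had 0.713 and 0.699 against 2.50 and 2.22, a difference of -1.67, and it was called on the intergenic scale too, at -1.16. Fbxw15 had 0.384 and 0.581 against 1.61 and 1.56, a difference of -1.64. The others were Gm10639, Prr27, the complement component gene C1ra, the pregnancy-specific glycoprotein gene Psg21, Tmem202, the glutathione S-transferase gene Gsta2 and 1520401A03Rik. Tmem202 and 1520401A03Rik overlap another annotated gene. Gm10639, Gsta2, Fbxw15 and Psg21 belong to families of closely similar copies, and their reads are uncertain to that extent.

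Genes of the H3K36 methylation system itself mostly carried the trimethyl mark. Of 7 methyltransferase genes tested, 6 were higher in H3K36me3 and none in H3K36me2, against 47.9% and 37.9% of all genes, with a median log2 difference of 1.80 against 0.20 over all genes tested. Setd2, the gene of the trimethylating enzyme, had levels of 3.89, 3.43, 0.815 and 0.736, a difference of 2.17. Nsd1, a dimethyltransferase gene, had 4.77, 4.30, 0.515 and 0.513, a difference of 3.02, and was the highest of the list. Ash1l, another dimethyltransferase gene, differed by 1.89, with 4.24 and 3.71 against 1.07 and 0.999. Nsd2 differed by 1.80, with 3.74 and 3.21 against 0.950 and 0.966. In Nsd3 the marks were closer, at 3.10 and 3.18 against 1.64 and 1.52 (0.97), and likewise in Smyd2, at 3.90 and 4.35 against 2.43 and 2.13 (0.84). Prdm9, the meiotic H3K4 and H3K36 methyltransferase gene of germ cells, had 1.08 and 0.716 against 1.03 and 0.934, so its libraries overlapped and it was not called (-0.15), although it was for H3K36me2 on the median-centred scale (-0.68) and without H3K36me3 replicate 1 (-0.43).

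Of the 6 demethylase genes, 4 were higher in H3K36me3, 1 was higher in H3K36me2 and 1 was not called, a share for H3K36me3 that in so short a list is not far from the 47.9% of all genes. Kdm4a, a demethylase of H3K36me3 and H3K9me3, had the highest trimethyl level of the list, with 9.06 and 10.5 against 1.32 and 1.08 (2.97). Kdm2a, a demethylase of H3K36me2, had 3.55 and 2.96 against 0.749 and 0.740 (2.05), Kdm4c 1.75 and 1.44 against 0.563 and 0.570 (1.41), and Kdm4b 5.60 and 6.70 against 2.65 and 2.30 (1.29). Kdm2b, which also recruits a Polycomb complex to CpG islands, was not called over its whole body, at 2.49 and 2.65 against 2.50 and 2.16 (0.14), but was called for H3K36me3 on the intergenic scale (0.65) and for H3K36me2 on the median-centred scale (-0.39). Kdm4d was the member on the other side, with 0.426 and 0.376 against 0.596 and 0.625 (-0.55), although it reached only -0.04 and was not called on the intergenic scale.

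Of 12 genes for proteins that bind methylated H3K36 or need it for their recruitment, 10 were higher in H3K36me3 and none in H3K36me2 (median 2.76), against 47.9% and 37.9% of all genes. The count for H3K36me3 was 9 without any 1 of the 4 libraries, with a replicate block or with the DMSO libraries, and 8 on the median-centred scale. Msh6, a mismatch repair gene, had the largest difference, with 6.82 and 6.62 against 0.463 and 0.378 (3.85), followed by Mtf2, a PRC2 partner gene, with 4.29 and 3.38 against 0.337 and 0.313 (3.36). At the other end were the de novo DNA methyltransferase gene Dnmt3a, at 2.87 and 3.04 against 3.04 and 2.82 (0.01), and Phf19, at 2.21 and 2.33 against 2.80 and 2.60 (-0.24). Neither was called, but on the median-centred scale both were called for H3K36me2 (-0.52 and -0.77), and Phf19 also with the DMSO libraries (-0.29). Dnmt3a and Phf19 thus carried both marks well above the autosomal mean in all 4 libraries.

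Lists of genes that dividing cells express held to the same side. All 24 splicing factor genes tested were higher in H3K36me3 (median 3.27), as were all 19 tRNA synthetase genes (median 3.02), 21 of 21 proteasome subunit genes (median 2.83) and 26 of 26 DNA replication genes (median 2.80), against 47.9% of all genes. These counts were the same on the intergenic scale, and on the median-centred scale 1 proteasome gene and 1 replication gene were no longer called. Prpf8, a core splicing factor gene, had 10.3 and 11.7 against 0.556 and 0.468 (4.30). Psma6, a proteasome core subunit gene, had the smallest difference among proteasome genes, at 3.29 and 2.87 against 1.96 and 1.63 (0.76). Prim2, a primase subunit gene, had the smallest among replication genes, at 2.02 and 2.12 against 1.44 and 1.32 (0.56).

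Of the 29 pluripotency genes listed, 19 were long enough and autosomal. Of these, 17 were higher in H3K36me3 and 1 in H3K36me2 (median 2.41), against 47.9% and 37.9% of all genes, and on the intergenic scale the counts were 18 and 0. Besides Zfp42, Rif1 stood out, with 4.16 and 3.01 against 0.212 and 0.217 (3.76). Tfcp2l1, a transcription factor of the naive state, had 7.28 and 8.02 against 0.702 and 0.535 (3.53). Lin28a was not called (0.21), but it was called for H3K36me3 on the intergenic scale (0.72) and for H3K36me2 on the median-centred scale (-0.32). Dnmt3l, a cofactor of de novo DNA methylation, was called for H3K36me2, with 2.11 and 2.33 against 2.87 and 2.82 (-0.35), but not without H3K36me3 replicate 1, H3K36me2 replicate 1 or H3K36me2 replicate 2 (-0.28 to -0.37) or with a replicate block, and its sign turned on the intergenic scale (0.16).

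Cell type markers were also read. Of 10 stem cell markers listed, 6 were measured, and all 6 were higher in H3K36me3. They are also members of the pluripotency list above, so they are not a separate check. Of 10 measured fibroblast or feeder cell markers, 9 were called for H3K36me2 and none for H3K36me3, against 37.9% and 47.9% of all genes, with Col3a1 at 0.262 and 0.261 against 0.691 and 0.775. Of 4 neural markers, Tubb3 was higher in H3K36me3, with 4.58 and 4.87 against 2.38 and 2.19, while Map2, at 0.204 and 0.168 against 0.241 and 0.386, was called for H3K36me2 but not without its replicate 2 (-0.30). All 4 endoderm markers were called for H3K36me2. On the intergenic scale 1 fibroblast marker and 0 endoderm markers were called for H3K36me2. In bulk chromatin a mark in fewer cells and less of it per cell cannot be told apart.

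Genes of other lineages lay on the H3K36me2 side of the genome mean, by a small margin. The counts for H3K36me2 were 38 of 40 neuronal adhesion and synapse genes (median -0.57), 24 of 25 muscle genes (median -0.67), 22 of 23 liver genes (median -0.72), 22 of 23 immune genes (median -0.83) and 29 of 43 developmental regulators (median -0.47), against 37.9% of all genes. On the intergenic scale those counts were 0, 0, 2, 1 and 0, and the median of the developmental regulators turned to 0.04. That scale also changes the spread between replicates, so a gene not called on it is not shown to match intergenic chromatin. Centred on the median, 40 of 40 neuronal genes and 40 of 43 developmental regulators were called for H3K36me2. Of all 13128 genes, 6624 were called for H3K36me2 on that scale. The neuronal count was also 25, not 38, without H3K36me3 replicate 2, and 25 without H3K36me2 replicate 2.

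The lineage lists differed from each other in the amount of either mark. Neuronal genes, with a median length of 1135 kb, were poor in both, with median levels of 0.174 and 0.131 for H3K36me3 and 0.224 and 0.273 for H3K36me2. Muscle genes had median levels of 1.01 and 1.12 against 1.77 and 1.71. Developmental regulators had 0.910 and 0.964 against 1.28 and 1.40, and carried H3K27me3 at a median of 3.69, compared with 0.541 over all genes. Tnnt2, cardiac troponin T, was among the most dimethylated, at 1.46 and 1.70 against 3.69 and 3.28 (-1.12), and it was not called on the intergenic scale (-0.61).

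The lineage lists had exceptions. Inpp5d, the immune signalling phosphatase gene, was the 1 immune gene higher in H3K36me3, with 4.67 and 4.70 against 2.30 and 2.12 (1.07), and fell to 0.22 without the 1% of windows with the most signal, which ended the call. Ttn, which encodes titin, was the 1 muscle gene, with 2.15 and 1.78 against 1.44 and 1.54 (0.38), and it lost the call without H3K36me3 replicate 1 (0.25) or H3K36me2 replicate 1 (0.34). Its sign turned on the median-centred scale. Meis2 (0.80) and Isl1 (0.57) were the developmental regulators higher in H3K36me3, and on the median-centred scale neither was called (0.27 and 0.04). On the intergenic scale 5 developmental regulators were called for H3K36me3. Isl1 had levels of 0.728 and 0.953 against 0.442 and 0.673, and it lost the call without H3K36me3 replicate 2 (0.38) or H3K36me2 replicate 1 (0.29), and with the DMSO libraries (0.04) or no filter.

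**Figure D4:**
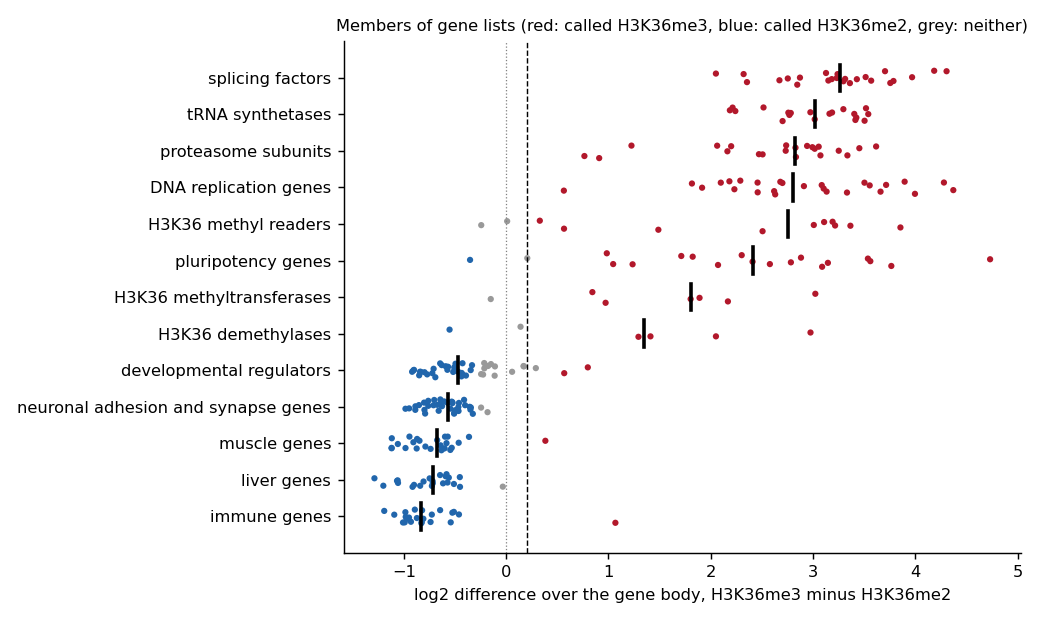
log2 difference over the gene body, H3K36me3 minus H3K36me2, on the autosomal-mean scale. Each point is a gene, vertical bars are list medians, the dotted line is 0 and the dashed line the median of all genes (0.20). Splicing, tRNA synthetase, proteasome and replication genes all lie above 0.5, and most lineage genes lie between -1.29 and 0; scaled to intergenic chromatin, the median of developmental regulators turns to 0.04 and few lineage genes are called.

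Clustered families gave mixed pictures. Of 324 zinc finger genes with Zfp symbols, 259 were higher in H3K36me3 and 32 in H3K36me2 (median 1.10), against 47.9% and 37.9% of all genes, and on the intergenic scale 274 and 2. Centring on the median moved all genes, these included, the other way, towards H3K36me2. Of 22 olfactory receptor genes long enough to be measured, none was called for H3K36me3 and 11 for H3K36me2 (median -0.31), against 37.9% of all genes for H3K36me2. That count was 5 with limma-voom, 15 without H3K36me2 replicate 1, 17 with the DMSO libraries and 19 when centred on the median, and the median was -0.08 without H3K36me2 replicate 2 and -0.57 without replicate 1. Of 88 vomeronasal receptor genes tested, 8 were called for H3K36me3 and 44 for H3K36me2 (median -0.31), a share for H3K36me2 not far above the 37.9% of all genes. Without H3K36me3 replicate 2 the vomeronasal counts were 11 and 30, without H3K36me3 replicate 1 they were 5 and 47, and without H3K36me2 replicate 2 they were 4 and 32. With the DMSO libraries they were 0 and 65, with the intensity trend 0 and 26, with a pseudocount of 0.2 1 and 28, with limma-voom 2 and 23, and centred on the median 0 and 71, so neither count is firm. Both receptor medians turned to 0.20 on the intergenic scale, where 3 and 1 olfactory and 18 and 3 vomeronasal genes were called. Median levels of the vomeronasal genes were between 0.0614 and 0.0986 in the 4 libraries, under 2 reads per window on average except in H3K36me2 replicate 1, and near-identical copies make their reads uncertain.

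The gradient was also tested gene by gene. Each gene was split at its midpoint, and the slope was the log2 ratio of the 3′ part to the 5′ part. Of 10426 genes tested with limma, 4679 had a larger slope in H3K36me3 than in H3K36me2 (44.9%) and 906 had a smaller one (8.69%) at an adjusted p under 0.05. The median slope was 0.32 and 0.35 in the H3K36me3 libraries and -0.08 and -0.07 in the H3K36me2 libraries. H3K36me3 was higher and H3K36me2 lower in the 3′ part in 3859 genes (37.0%), and the reverse was found in 804 (7.71%). In 3688 genes both marks were higher in the 3′ part, and in 2075 both were lower. The count of 906 rested on both H3K36me2 libraries: it was 494 without replicate 1 and 461 without replicate 2.

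In the steepest genes H3K36me3 was higher and H3K36me2 lower in the 3′ part, though the latter by little in Stk25 (1.71 to 1.51 and 1.60 to 1.44). Ildr1 went from 1.92 and 1.63 in the 5′ part to 7.82 and 7.93 in the 3′ part in H3K36me3, and from 3.06 and 2.78 to 0.645 and 0.493 in H3K36me2. The difference between the slopes was 4.39 ± 0.14 on the log2 scale (limma adjusted p = 0.00022). Srrm2, a splicing coactivator gene, went from 1.65 and 1.65 to 11.1 and 11.9 and from 1.74 and 1.84 to 0.595 and 0.482 (4.41 ± 0.15, limma adjusted p = 0.00022). Inpp5d, over 100 kb, went from 1.60 and 1.48 to 7.68 and 7.86 and from 3.34 and 2.99 to 1.28 and 1.27 (3.57 ± 0.11). In each of the 3 genes every library changed in the direction of its mark. The other members were Cenpt, Atxn2l, Mthfd2, Map3k12, Slc3a2, Stk25 and Dpy30, between 3.80 and 3.41.

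Several of these genes have a listed start inside their annotated span. The RefSeq promoter table places the first listed start of Srrm2 12.7 kb into the span. The only listed start lies 8.41 kb into Mthfd2, 9.47 kb into Slc3a2, 18.5 kb into Stk25 and 3.08 kb into Cenpt, and the nearest of 2 lies 4.38 kb into Atxn2l. In those genes the 5′ part holds sequence before the listed start. Ildr1 and Inpp5d have a single listed start at the beginning of the span. Srrm2, Cenpt, Atxn2l, Inpp5d, Map3k12 and Stk25 overlap another annotated gene. Without genes that overlap another, the mean difference between the marks from the first to the last 10% was 1.25, against 1.20 in all genes.

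The opposite pattern was led by Trub2, with 8.98 and 11.1 in the 5′ part and 2.26 and 3.12 in the 3′ part in H3K36me3, and 1.01 and 0.916 against 2.74 and 2.27 in H3K36me2 (-3.22 ± 0.11, limma adjusted p = 0.00022). Zfp64, a zinc finger gene that overlaps no other, had 6.86 and 7.74 against 2.11 and 2.37, and 1.02 and 0.732 against 2.77 and 2.35 (-3.19 ± 0.12). The others were Ggnbp1, Mettl6, Ccl25, Eaf2, the mismatch repair gene Pms2, Aldh3a2, Klf15 and Coq7, between -2.94 and -2.18. Trub2, Ggnbp1, Mettl6, Ccl25, Eaf2 and Pms2 overlap another annotated gene, and RefSeq also lists starts 11.2 kb into Ggnbp1, 24.4 kb into Ccl25 and 66.4 kb into Eaf2. Klf15 and Coq7 were not called when the last 10% was set against the first. Over 30 kb from its start Zfp64 had H3K36me3 at 6.96 and 7.81 and H3K36me2 at 1.04 and 0.715. From 40 kb to its end at 62.3 kb it had 1.81 and 2.25 against 2.74 and 2.23, so the libraries of the marks overlapped there.

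Esrrb, a transcription factor gene of naive pluripotency that spans 161 kb (chr12:86361117-86521628), had the largest slope difference of the 3 stem cell markers with a slope tested. Over the first 90 kb H3K36me3 was at 1.97 and 2.25 and H3K36me2 at 3.36 and 2.82. From 110 kb to the end H3K36me3 was at 8.06 and 8.88 and H3K36me2 at 0.690 and 0.585. The libraries of the marks did not overlap in either stretch, and the order was reversed. These limits were chosen after the values were seen. The slope test gave 2.96 for the gene as a whole (limma adjusted p = 0.00022). RefSeq lists starts at 0 and 60.5 kb of the span, and in the 20 kb after the latter the levels were 2.44 and 2.88 against 3.45 and 2.64, so the libraries of the marks overlapped. In the body test the stretches cancelled in part, at 4.21 and 4.71 against 2.43 and 2.04 (0.98).

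Setd2 held its marks apart over nearly its whole length. In the 20 kb before its start the levels were 1.18 and 1.15 for H3K36me3 and 2.34 and 1.91 for H3K36me2. In its first 20 kb they were 2.64 and 2.21 against 1.03 and 0.801, and in its last 20 kb 5.20 and 4.91 against 1.09 and 0.919. Its slopes did not differ when the gene was split at its midpoint (0.18, limma adjusted p = 0.18). This null result holds for the midpoint split only. With the last step of the gene set against the first, all 3 methyltransferase genes with a slope tested were called, Setd2 among them. Of these 3 genes, 2 were called for H3K36me3 and 1 for H3K36me2. Dpp6, a neuronal potassium channel subunit gene of 910 kb, had 0.353 and 0.360 against 0.547 and 0.897 in its first 20 kb and 1.14 and 1.36 against 2.36 and 2.01 in its last. H3K36me2 was thus above H3K36me3 in both stretches, and over the whole body the difference was -0.95, which was not called on the intergenic scale (-0.44).

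**Figure D5:**
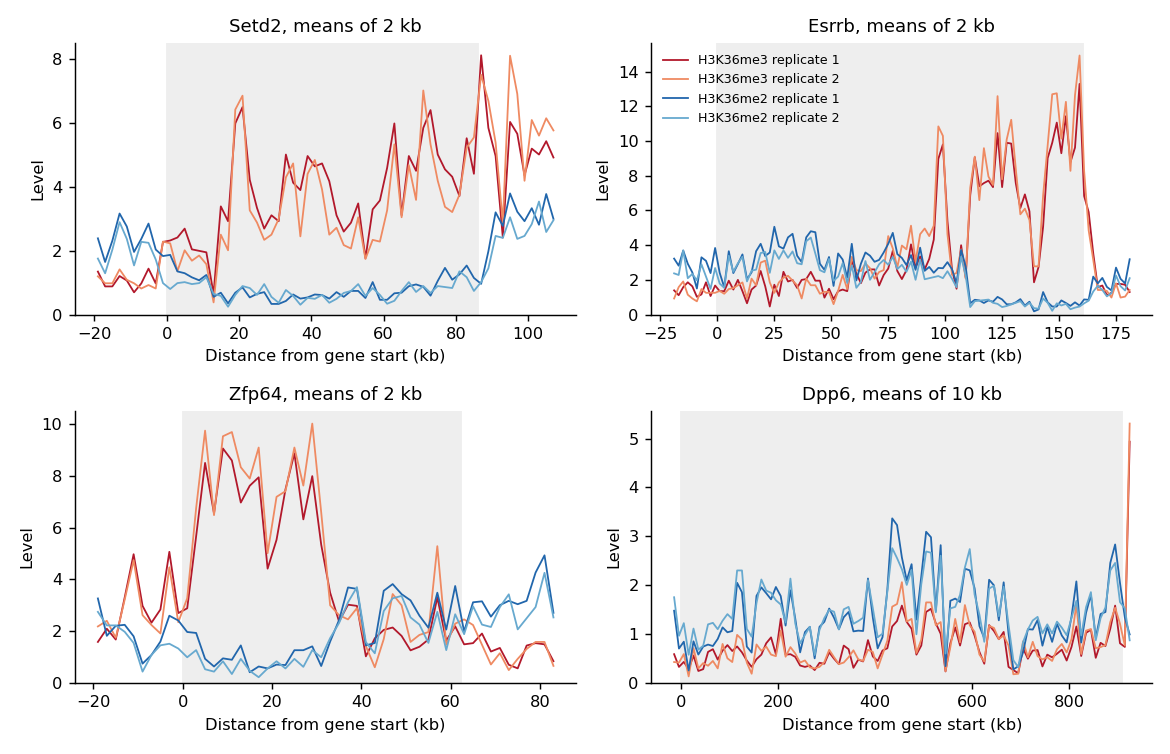
Level of each library (1 is the autosomal mean) by distance from the gene start in Setd2, Esrrb, Zfp64 and Dpp6, as means of 2 kb, or 10 kb in Dpp6, with the gene in grey. In Esrrb the mean of H3K36me2 is the higher one over the first 90 kb, though not in every step, and that of H3K36me3 beyond 110 kb. In Zfp64 H3K36me3 is higher over the first 30 kb. From 40 kb to its end the library means over the stretch overlap, though in several steps H3K36me2 lies above in both libraries. In Dpp6 H3K36me2 lies above H3K36me3 over most of the gene.

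Slopes were also counted by list. Of the pluripotency genes with a strand, 12 of 13 had the steeper H3K36me3 gradient, as did 10 of 12 tRNA synthetase genes, 12 of 17 proteasome genes, 14 of 20 splicing genes and 15 of 21 replication genes, against 44.9% of all genes. Without H3K36me2 replicate 2 the splicing count was 8 of 20 and the replication count 10 of 21, beside 3736 of 10430 over all genes in the same fit. Among muscle genes 6 of 20 had the steeper H3K36me3 gradient and 0 went the other way. Among liver genes 3 of 17 did and 1 went the other way. Over all genes the shares were 44.9% for the steeper H3K36me3 gradient and 8.69% for the other way. Without H3K36me2 replicate 2 the muscle count was 3 and the liver counts were 2 and 0, without H3K36me2 replicate 1 the liver counts were 3 and 0, without H3K36me3 replicate 1 they were 3 and 2, and without H3K36me3 replicate 2 they were 5 and 2. Without H3K36me2 replicate 1 the muscle count was 4, and it was 1 when the last 10% was set against the first. Among immune genes 1 of 15 did, and 2 without either H3K36me3 replicate. Among developmental regulators 0 of 31 did and 5 went the other way, and among neuronal genes 3 of 28 did and 5 went the other way. Without H3K36me2 replicate 2 these counts were 0 and 3, and 0 and 1. Without H3K36me2 replicate 1 they were 0 and 3, and 0 and 2, and without either H3K36me3 replicate the neuronal counts were 1 and 3. With limma-voom the developmental counts were 2 and 8 and the neuronal counts 4 and 10, and with the DMSO libraries the neuronal counts were 2 and 0, with the median slope difference at 0.03 in place of -0.10, so the neuronal genes have no firm direction. Among the methyltransferase genes with a strand, Smyd2 had the steeper H3K36me3 gradient (1.09, limma adjusted p = 0.00056), and among demethylase genes Kdm4c (0.82) and Kdm2b (0.71) did. Kdm2b, not called over its body, thus still had different slopes in the marks.

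The authors' peak list for H3K36me2, 40638 peaks on the autosomes that replicated between its untreated libraries, was read by place. Peak windows inside protein-coding genes of any length had H3K36me3 at 2.33 and 2.46 and H3K36me2 at 2.24 and 2.06, a log2 ratio of 0.16. Intergenic windows in these peaks had 1.26 and 1.26 against 2.28 and 2.16, a ratio of -0.81. Gene body windows outside the peaks had 1.22 and 1.17 against 0.517 and 0.582, a ratio of 1.13. Intergenic windows outside the peaks, 76.6% of intergenic windows, had 0.254 and 0.226 against 0.303 and 0.382, a ratio of -0.51. Relative to the autosomal mean, H3K36me2 was thus the higher mark between genes in and outside its peaks. Outside the peaks all levels were low and no input library was used, and the order there depends on the scale. H3K36me2 in its peaks was thus about as high inside genes as between them, while H3K36me3 in the same peaks was lower between them in both libraries. The peaks were called on the H3K36me2 libraries, so the level of that mark in them is not an independent result.

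Between genes the marks went together in place and differed in level. Of 94422 intergenic bins tested with limma, 37338 were higher in H3K36me2 (39.5%) and 2142 in H3K36me3 (2.27%). Without H3K36me2 replicate 2, limma called 0 bins at an adjusted p under 0.05 and 30883 had an unadjusted p under 0.05. Without H3K36me2 replicate 1 the counts were 23389 and 767. In such a fit the single H3K36me2 library is assumed to vary like the H3K36me3 pair, which leaves 1 residual degree of freedom, and it says little of the differences themselves. limma-voom on all 4 libraries called 38417 bins. The counts depended on the scale. Scaling by the intergenic median gave 8133 for H3K36me2 and 7908 for H3K36me3, with the median bin at -0.11 in place of -0.63. That scaling gives all libraries the same median over the intergenic bins, so a small median difference and a more even split follow by construction. Median levels inside the called bins were also read. Those of H3K36me3 and H3K36me2 are of the values used for the calls, so their order follows from the call. Bins higher in H3K36me2 had median levels of 0.448 for H3K36me3 and 0.998 for H3K36me2, with H3K27me3 at 0.755. Bins higher in H3K36me3 had 0.436 and 0.180, with H3K27me3 at 0.153. Bins without a call had 0.172 and 0.225.

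Adjoining called bins were joined into runs, whose number and length depend on how many bins were called for each mark, so they are not compared between the marks. The 2142 bins called for H3K36me3 fell into 1777 runs, and the 37338 called for H3K36me2 into 19172. The longest for H3K36me3 was 100 kb, chr10:83370001-83470000, 1.17 kb from D10Wsu102e, with levels of 4.54 and 5.45 against 1.09 and 0.980. The longest for H3K36me2 was 270 kb, chr19:14680001-14950000, 81.8 kb from Tle4, with 0.632 and 0.506 against 1.45 and 1.57. Runs of 220 kb lay 7.18 kb from Epha4 on chromosome 1 and 308 kb from Sox2 on chromosome 3, the latter with 1.04 and 0.975 against 2.31 and 2.24.

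Of single bins, the largest difference towards H3K36me3 was at chr9:123930001-123940000, 22.1 kb downstream of Ccr1, with 22.0 and 23.5 against 2.99 and 2.90 (2.93 ± 0.23, limma adjusted p = 0.011). It was followed by a bin 55.9 kb upstream of Nkx1-1 (2.83) and one 21.5 kb upstream of Fbrsl1 (2.79). The bin near Nkx1-1, chr5:33490001-33500000, had 9.40 and 10.98 against 1.48 and 1.30. The largest differences towards H3K36me2 were in bins with few H3K36me3 reads. The bin 3.26 kb downstream of Efemp1 held 21 and 1 window reads of H3K36me3 and 118 and 109 of H3K36me2 (-2.28 ± 0.56, limma adjusted p = 0.017). The bins 251 kb upstream of Klf6 (-2.16) and 199 kb downstream of Etaa1 (-2.16) held 33 and 8, and 6 and 9, H3K36me3 reads. Their H3K36me3 replicates differed by up to 21-fold in reads.

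The balance of the marks over gene bodies moved with the methylation of H3K27. Genes were divided into 5 equal classes by their mean H3K27me3. In the lowest class the levels were 3.63 and 3.51 for H3K36me3 and 0.716 and 0.652 for H3K36me2, a log2 ratio of 2.39. The ratios of the next classes were 1.71, 0.81 and 0.01, and in the highest class it was -0.42, from 1.61 and 1.75 against 2.32 and 2.18. H3K36me2 was therefore higher in each class of higher H3K27me3 in both libraries. Over classes of H3K27me1 the ratio ran the other way, from -0.48 in the lowest through -0.40, 0.18 and 1.14 to 2.10 in the highest, where H3K36me3 was at 5.75 and 6.22 and H3K36me2 at 1.50 and 1.30. These are class means over genes of the same cells and carry no test.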

How the data were processed

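Tracks of untreated E14 mouse embryonic stem cells (2 H3K36me3 and 2 H3K36me2 libraries) and, beside them, of H3K27me1, H3K27me2 and H3K27me3 were used. Per the submitters' processing notes, Trim Galore 0.4.2, Bowtie2 2.2.6.2, SICER and the builds mm10 and dm3 were used, with roles not given there. Read extension and duplicate handling are not given in the sources used here. The authors deposited log2(1 + RPM) in 1 kb windows every 500 bp, worked out from the values: the reverse transform gave whole reads for 100% of windows at a tolerance of 0.02. The authors deposited an H3K36me2 peak list with a score per peak of unstated scale, made from peaks that replicated between both untreated libraries, per the deposited readme. Only its positions were used.

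Values were made linear, non-overlapping windows were averaged over features by their midpoint, and each library was divided by its autosomal mean. Gene spans came from RefSeq (GRCm38.p6, the build called mm10). Strand was known for 10549 of 13323 genes, none on chromosome 18. Exon positions were not used here, so exons and introns were not compared. limma 3.58.1 (R 4.3.3; lmFit, eBayes, no covariate) was run on log2(level + 0.05) for features above 0 in all 4 libraries, which left out 195 genes, with Benjamini-Hochberg adjustment over all features. A fold change on this scale understates differences at low levels. Its prior degrees of freedom were infinite for gene bodies, 3.42 for slopes and 6.18 for bins. Single quotients were compared by an exact permutation test. limma was tested on simulated counts. No input library was used here.

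The text names the 10 largest differences in each direction of the gene body and slope tests among called genes whose libraries do not overlap, the 3 largest bins in each direction, every H3K36 methyltransferase and demethylase gene, and from the 2 highest and 2 lowest of other lists; a pair of exceptions, the stretches within Esrrb and Zfp64, were chosen after their values were seen. The members and lists were chosen with earlier results of these data known. The alternatives left out each library, used H3K36me2 libraries of DMSO-treated cells, shifted windows, dropped the top 1% of windows, and changed scaling, pseudocount, filter, gene length, model and replicate block. Replicate numbers gave no pairing that the data bore out.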

Additional observations from a re-analysis of the deposited data

Results flagged for a closer look

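Chromosome X was outside every comparison above. Its 567 gene bodies had levels of 0.772 and 0.715 in H3K36me3 and 0.361 and 0.361 in H3K36me2, relative to the autosomal mean, a log2 ratio of 1.04 with the libraries of the marks apart. It is listed because it is signal in data the comparisons did not use. Autosomal gene bodies had a log2 ratio of 0.87, and the difference between the chromosomes was not tested.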

How the results depend on the processing

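The difference of 1.20 from the first to the last 10% of the gene ranged from 1.14 to 1.26 without 1 library and from 0.79 (genes of 50 kb or more) to 1.25 (no overlapping gene) under the other alternatives. The difference of 1.64 between gene bodies and intergenic bins ranged from 1.53 to 1.74 without 1 library and from 1.14 (medians) to 1.71. The comparison of exons with introns and its alternatives were not run. For gene bodies, scaling by the intergenic median gave 7195 calls, 379 of them for H3K36me2, and genes of 50 kb or more gave 4033, 1800 for H3K36me3 and 2233 for H3K36me2, by construction with fewer genes tested. Without 1 library, gene body calls for H3K36me3 numbered 5989 to 6286 and for H3K36me2 4490 to 4759. For slopes they numbered 3727 to 4601 and 461 to 899.

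Leaving out 1 library leaves its mark with a single sample, assumed to vary like the other mark. Without 1 library intergenic calls numbered 0 to 41920, with 0 to 2192 for H3K36me3 and 0 to 40171 for H3K36me2. They numbered 61201 with the DMSO libraries (59441 for H3K36me2), 21829 with no filter (1357 for H3K36me3 and 20472 for H3K36me2), 16041 with intergenic scaling (7908 and 8133) and 15047 when centred on the median (8916 and 6131). Intergenic scaling and centring move all bins of a library together, by an amount that differs between libraries. They thus change both the position of the bins and the spread between replicates. Both give the libraries the same median bin, so a more even split between the marks follows by construction. The cause of the changed totals was not tested.

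Replicate numbers were shared between the marks, but the deviations of same-numbered libraries correlated at -0.31 over gene bodies, -0.08 over slopes and -0.09 over bins. With a replicate block the difference along the gene is 1.20 and that between gene bodies and intergenic bins 1.64, as a balanced design fixes them. The replicate block gave 10948 gene body calls (6171 and 4777), 5211 slope calls (4426 and 785) and 24798 bin calls (1163 for H3K36me3 and 23635 for H3K36me2). A crossed pairing, added after seeing the data, gave 11644 gene body calls.

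Among called values of single genes picked by the naming rule, not all of them described above, 8 turned sign: on the intergenic scale Alb (0.061), Col6a3 (0.020), Dnmt3l (0.16), Lyn (0.050) and Ryr1 (0.15), on the median-centred scale Ttn (-0.15) and Vmn2r60 (-0.032), and with the DMSO libraries Vmn2r60 (-0.089). Depth sets the counting error, and a level of 1 is as few as 9.18 reads per window; its part in the changes was not tested.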

Other observations

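Genes called for either mark also differed in the marks of H3K27, as medians over genes with no test. The 6282 genes higher in H3K36me3 had a median H3K27me3 of 0.173 and H3K27me1 of 1.93, and a median length of 29.2 kb. The 4975 genes higher in H3K36me2 had a median H3K27me3 of 1.75 and H3K27me1 of 0.933, and a median length of 40.1 kb. H3K27me2 was nearly the same in both, at 1.22 and 1.28.

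Intergenic bins called for H3K36me3 lay a median of 105 kb from the nearest protein-coding gene, those called for H3K36me2 66.8 kb and bins without a call 182 kb. Within 10 kb of a protein-coding gene lay 16.1% of the bins called for either mark and 9.40% of the others. Flanks of single genes were read without leaving out windows of other genes. Past the end of Dpp6 the order of the marks turned within 20 kb. From 910 to 920 kb after its start, just past the end, the levels were 0.734 and 0.763 for H3K36me3 and 1.34 and 1.52 for H3K36me2, and from 920 to 930 kb they were 4.94 and 5.31 against 0.990 and 0.869. In the 20 kb after the end of Zfp64 they were 1.30 and 1.30 against 3.32 and 2.81, and so opposite in order to the first 20 kb of that gene, at 6.82 and 7.58 against 1.03 and 0.653.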
